A study of Mus musculus with 16 samples.

Results

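The genes of glycolysis and of the cellular response to low oxygen were followed across 8 sorted populations of differentiating mouse embryonic stem (ES) cells. The list holds 38 genes: the subunits of the hypoxia-inducible factor (HIF), the enzymes that hydroxylate it, glucose and lactate transporters, glycolytic enzymes and known HIF targets. The list names genes by function, but it was chosen with earlier results of these data known. Each gene was represented by the probe set that lists its symbol alone and has the highest mean log2 signal over all arrays. By this rule 34 of the 38 genes were measured, out of 18193 genes that have such a probe set and 45037 probe sets in all. Gapdh and Bnip3l lie only on probe sets that list several symbols, and Gpi1 and Eno1 were not analysed here. For 21 of the 34 genes more than 1 probe set was present, and these did not always give the same difference.

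CCE cells, a mouse ES cell line, were separated from feeder fibroblasts and formed embryoid bodies after leukemia inhibitory factor was withdrawn. The aim of the sort was to follow cells on the way to endothelium. Sorted cells that bore an antigen are written with a plus sign. Cells bearing VEGF-R2, a receptor of early mesoderm and endothelium, were taken at day 2.5, and cells bearing CD41, an early blood cell antigen, at day 3.5. Cells bearing CD144, the endothelial VE-cadherin, were taken at days 3.5 and 6.5, and cells without the antigen served as the negative control of each sort. All groups were unmodified cells of this 1 line, cells were fixed in ethanol and acetic acid before staining, and CD41+ and CD144+ cells were mainly subsets of the VEGF-R2+ cells. Each population was measured on 2 Affymetrix 430 2.0 arrays, from RNA of separately conducted experiments, 16 arrays in all. An error given below measures the spread between such arrays.

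Glycolysis splits glucose to pyruvate, and lactate dehydrogenase turns pyruvate to lactate when it does not enter the mitochondria. When oxygen is low, prolyl hydroxylases no longer mark the HIF alpha subunits (Hif1a, Epas1) for destruction, and the alpha subunit pairs with Arnt to bind DNA. HIF is known to raise transcription of glucose transporters, glycolytic enzymes, Pdk1, which keeps pyruvate out of the mitochondria, and Bnip3, which marks mitochondria for removal. HIF activity is set mainly by the stability of its protein, so the transcript of a subunit is not a measure of it. ES cells and early embryonic cells are known for a high rate of glycolysis.

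HIF binds DNA at the core ACGTG, or with G in the first place GCGTG. In RefSeq promoters (GRCm38.p6), the 250 bases upstream of a start held ACGTG on either strand in at least 1 promoter of 21 of the 34 listed genes that have a promoter entry, against 4998 of 27025 genes (18.5%). The 34 listed genes with a promoter entry are not the same 34 as those measured. Over 32851 single promoters of this length 16.6% held ACGTG, 28.2% held GCGTG and 6.81% held ACGTG 2 or more times. The palindrome CACGTG counts on both strands. A match is a string of letters and not a measured binding site. Stretches of 80 bases are shown for 6 genes, chosen because they differed in behavior, as described below: Slc2a1, Bnip3, Pgk1 and P4ha1 were higher in CD144+ cells on day 6.5 than in VEGF-R2+ cells, Ldha showed no detectable difference and Egln3 was lower. Capitals mark ACGTG or, for the other strand, CACGT, and each stretch reads 5′ to 3′ on the strand of its gene.
Slc2a1 (chr4:119108665-119108744, plus strand): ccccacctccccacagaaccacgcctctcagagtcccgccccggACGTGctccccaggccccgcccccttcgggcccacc
Bnip3 (chr7:138909572-138909651, minus strand): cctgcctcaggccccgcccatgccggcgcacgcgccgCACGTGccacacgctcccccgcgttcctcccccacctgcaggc
Pgk1 (chrX:106186922-106187001, plus strand): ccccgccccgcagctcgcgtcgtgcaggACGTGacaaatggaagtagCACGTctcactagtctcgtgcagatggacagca
P4ha1 (chr10:59323216-59323295, plus strand): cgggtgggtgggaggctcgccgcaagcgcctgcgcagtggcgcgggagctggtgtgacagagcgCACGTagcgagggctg
Ldha (chr7:46845723-46845802, plus strand): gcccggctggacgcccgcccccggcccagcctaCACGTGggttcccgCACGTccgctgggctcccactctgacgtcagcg
Egln3 (chr12:54204045-54204124, minus strand): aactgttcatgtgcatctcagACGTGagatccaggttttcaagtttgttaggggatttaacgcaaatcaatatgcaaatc
The 250 bases of Ldha held 5 matches, of which 3 lie in the stretch shown, and those of Bnip3 and Pgk1 held 2 each. Genes with and without ACGTG were thus found among those that were higher. Adm, Hk1 and Aldoc have no ACGTG in this window, which says only that these letters are not in it. They do hold the other core, GCGTG, at most 2, 3 and 1 times in a promoter.

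The deposited values are MAS5 signals, a linear intensity scaled on each array to a trimmed mean of 500. The log2 of the signal plus 6 was fitted in limma for all arrays together, and a difference was called when its Benjamini-Hochberg adjusted p over all probe sets was under 0.05. Between the 2 arrays of a population Spearman's rho was 0.872 to 0.895 for positive and 0.945 to 0.955 for negative cells. The arrays of positive cells reached further at the top of the range, with a highest signal of 69556 to 115166 against 30720 to 41369 on the arrays of negative cells. Control transcripts of bacterial and phage origin showed the same split, with a geometric mean of 8158 to 14220 against 2785 to 3815. Gapdh, the glycolytic enzyme whose transcript serves as an array control, had 44685 to 65894 on positive and 20398 to 26036 on negative arrays in its 3′ control set, which has no place in the tests. Among probe sets with a mean log2 level of 14 or more, the median difference of positive over negative cells was 0.87 at day 2.5, 0.75 for CD41, 0.95 for CD144 at day 3.5 and 0.71 at day 6.5, whatever the gene. A comparison of positive with negative cells therefore also compared these 2 sets of arrays, most of all for abundant transcripts such as those of glycolytic enzymes. The sorting antigens were higher on the labelled side. Kdr (VEGF-R2) was higher by 1.49 at day 2.5, Itga2b (CD41) by 4.87 in CD41+ cells, and Cdh5 (CD144) by 5.85 and 6.05 in CD144+ cells on days 3.5 and 6.5, all on the log2 scale. In these bulk samples fewer cells of a type and less RNA per cell cannot be told apart.

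The listed genes were abundant. Their median level was 11.05 on the log2 scale against 7.75 over all genes, and 33 of 34 lay above the median gene. A difference among the 8 populations was called for 30 of 34 (F test in limma), where the background over all genes was 55%. The 4 genes without a call were Slc16a3, which exports lactate, Pkm, the last enzyme of glycolysis, Pdk3, a relative of Pdk1, and Car9, a carbonic anhydrase known as a marker of hypoxia. Over the 16 arrays Pkm ran from 14462 to 20154, Pdk3 from 1104 to 1731 and Slc16a3 from 772 to 2942.

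**Figure D1:**
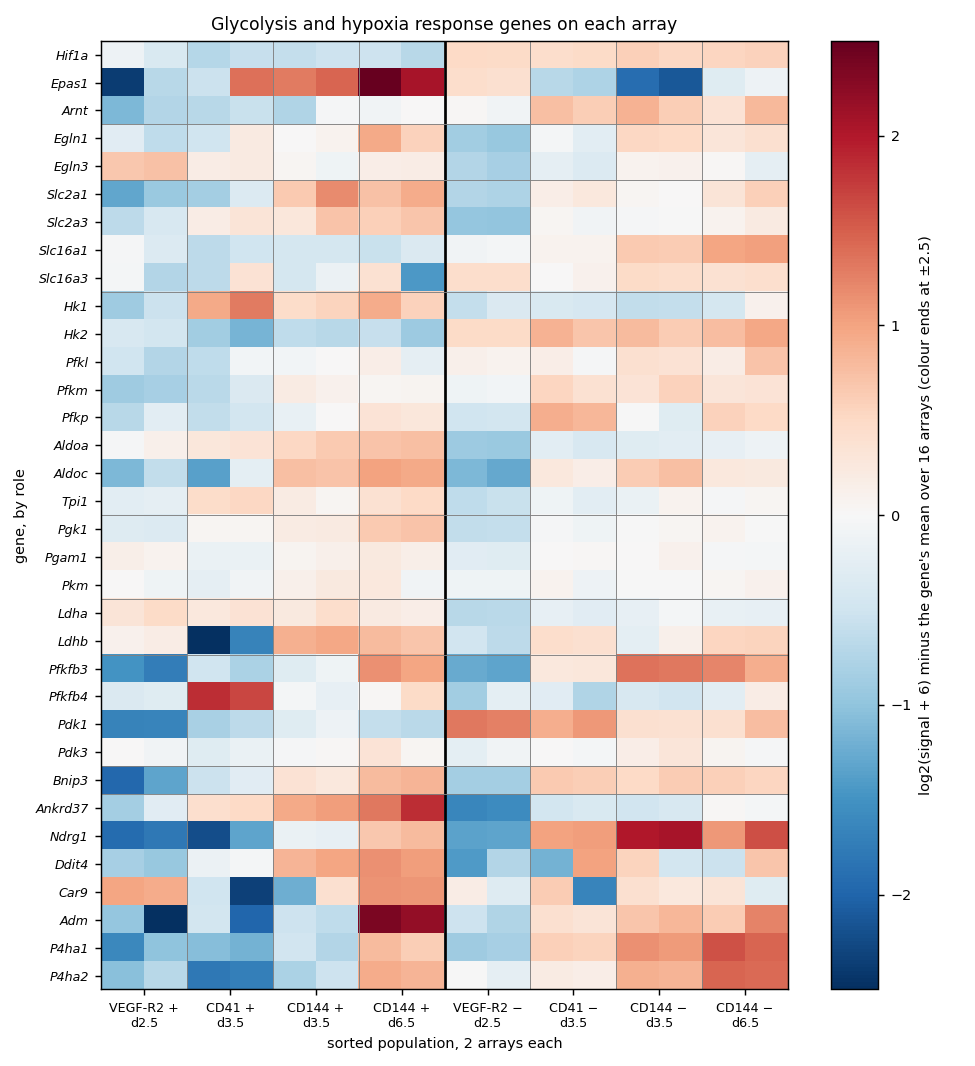
Each cell gives the log2(signal + 6) of 1 gene (rows, ordered by role) on 1 array (columns, 2 per population), minus the mean of that gene over 16 arrays; red is higher and blue is lower, and the color ends at 2.5 in each direction. The 8 arrays of positive cells are left of the black line, and Epas1, Adm and Ndrg1 have the widest range of population means, 4.28, 4.16 and 3.89.

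From VEGF-R2+ cells on day 2.5 to the later positive cells, the listed genes were more often higher than lower. In CD41+ cells 9 of 34 were higher and 4 lower, with a background over all genes of 7.04% higher and 7.59% lower. In CD144+ cells on day 3.5 the counts were 16 higher and 1 lower, against 7.21% and 3.92% of all genes. By day 6.5 they were 21 higher and 1 lower, against 12.8% and 8.86%. The median difference over the 34 genes was 0.26, 0.54 and 0.90 on the log2 scale in these comparisons, and that over all genes was 0.03, 0.07 and 0.10. The gene that was lower in CD144+ cells on both days was Egln3. Between CD144+ cells on days 3.5 and 6.5, 7 were higher at day 6.5 and none lower by limma, against 4.23% and 4% of all genes. Those 7 were Egln1, Pgk1, Pfkfb3, Ndrg1, Adm, P4ha1 and P4ha2. The calls of Egln1 (0.53 to 0.90), Pgk1 (0.43 to 0.49) and Ndrg1 (0.86 to 0.97) were lost when any of the 4 arrays compared was left out.

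The same direction was found among negative control cells. CD41 negative cells on day 3.5 had 14 listed genes higher than VEGF-R2 negative cells and none lower by limma, with a background of 2.51% higher and 3.09% lower. CD144 negative cells had 18 higher and 2 lower at day 3.5, against 6.49% and 4.93% of all genes, and 18 higher and 1 lower at day 6.5, against 8.2% and 5.44%. The medians over the 34 genes were 0.51, 0.59 and 0.66, and those over all genes 0.03, 0.05 and 0.10. Epas1 and Pdk1 were the 2 genes lower in CD144 negative cells on day 3.5, and Pdk1 the gene lower at day 6.5. These comparisons share the VEGF-R2 negative arrays, as those between positive cells share the VEGF-R2+ arrays. The count of 14 in CD41 negative cells became 8 when the median of each array was subtracted, 7 to 9 when any 1 of its 4 arrays was left out and 5 with a robust prior without trend. The 20 calls in CD144 negative cells of day 3.5 became 13 without replicate 1 of VEGF-R2 negative cells and 11 with the robust prior.

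Hif1a encodes the HIF alpha subunit found in most cells. Its signal was 3465 and 2901 on the VEGF-R2+ arrays, 2302 and 2555 on the CD41+ arrays, 2515 and 2657 on the CD144+ arrays at day 3.5, and 2642 and 2339 at day 6.5. The negative cells had 5332 and 5314 (VEGF-R2, day 2.5), 5172 and 5276 (CD41), 5752 and 5433 (CD144, day 3.5), and 5496 and 5687 (CD144, day 6.5). All 8 negative arrays lay above all 8 positive arrays. Positive cells were lower than their negative control in the VEGF-R2, CD41 and both CD144 sorts, with log2 differences of -0.75, -1.10, -1.11 and -1.17 with a standard error of 0.12 and adjusted p of 0.000294, 3.52e-06, 1.06e-05 and 5.36e-06. No difference between days was called on either side, with log2 differences from -0.39 to 0.07. A dimmer probe set of Hif1a gave smaller differences of the same sign, -0.41, -0.36, -0.15 and -0.61, a still dimmer one larger differences, from -2.93 to -1.38, and the dimmest, with a mean log2 level of 5.65, gave -0.35, -2.64, 0.63 and 0.25, of opposite sign in both CD144 sorts.

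Epas1 encodes the HIF alpha subunit best known from endothelial cells, and between days 2.5 and 3.5 its level rose to CD144+ cells and fell to CD144 negative cells. It was 200 and 654 on the VEGF-R2+ arrays, 738 and 2787 on the CD41+ arrays, 2627 and 2927 on the CD144+ arrays at day 3.5, and 6017 and 4472 at day 6.5. In the negative cells it was 1444 and 1408 at day 2.5, 657 and 625 (CD41) and 281 and 242 (CD144) at day 3.5, and 864 and 978 at day 6.5. The CD144+ arrays lay above all others but 1 CD41+ array, and the CD144 negative arrays at day 3.5 were among the lowest. Against VEGF-R2+ cells Epas1 was higher in CD144+ cells by 2.92 at day 3.5 (standard error 0.47, adjusted p = 0.000911) and by 3.82 at day 6.5 (adjusted p = 3.07e-05). From VEGF-R2 negative to CD144 negative cells on day 3.5 it fell by 2.43 (adjusted p = 0.00328). The change to CD144+ cells exceeded that between the negative cells by 5.34 at day 3.5 (standard error 0.66, adjusted p = 7.74e-05) and by 4.45 at day 6.5 (adjusted p = 0.000653).

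The 2 replicates of VEGF-R2+ and of CD41+ cells were far apart for Epas1. Without replicate 1 of VEGF-R2+ cells the difference of CD41+ cells was 1.13 instead of 1.97 and was no longer called, and without replicate 2 of CD41+ cells it was 1.01. A dim second probe set of Epas1 gave -0.31 for CD41+ and 0.74 and 1.57 for CD144+ cells against VEGF-R2+ cells. The lower level in VEGF-R2+ than in negative cells, -1.96, became -1.12 without that same replicate 1 and lost its call. The call for CD144+ cells on day 3.5 held without each array in turn, and with the mean of both probe sets the difference was 1.83 (adjusted p = 0.0506). The summed signal of all 7 markers of endothelial cells on the list used here was also highest in CD144+ cells of day 6.5. The 7 include the sorting antigens Kdr and Cdh5, so their sum is partly set by the sorts. The sum was 9950 to 12242 in VEGF-R2+, 7567 to 13865 in CD41+, 12803 to 14095 and 22888 to 24053 in CD144+ cells, and 521 to 3098 over the negative populations. Its part in the Epas1 result was not tested.

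Arnt, the partner of both alpha subunits, was 344 and 449 on the VEGF-R2+ arrays and 708 and 760 on the CD144+ arrays at day 6.5, higher by 0.89 (standard error 0.22, adjusted p = 0.0107). This call was lost without replicate 1 of VEGF-R2+ cells (0.70) and without replicate 2 of CD144+ cells on day 6.5 (0.84). Arnt was lower in CD41+ than in CD41 negative cells (log2 difference -1.31, adjusted p = 0.000222). With the probe set of largest variance in place of the brightest, which is dim (mean log2 level 5.76), that difference was 0.13. The remaining probe sets of Arnt gave -1.12, -1.24 and -0.37, of the same sign as the call.

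**Figure D2:**
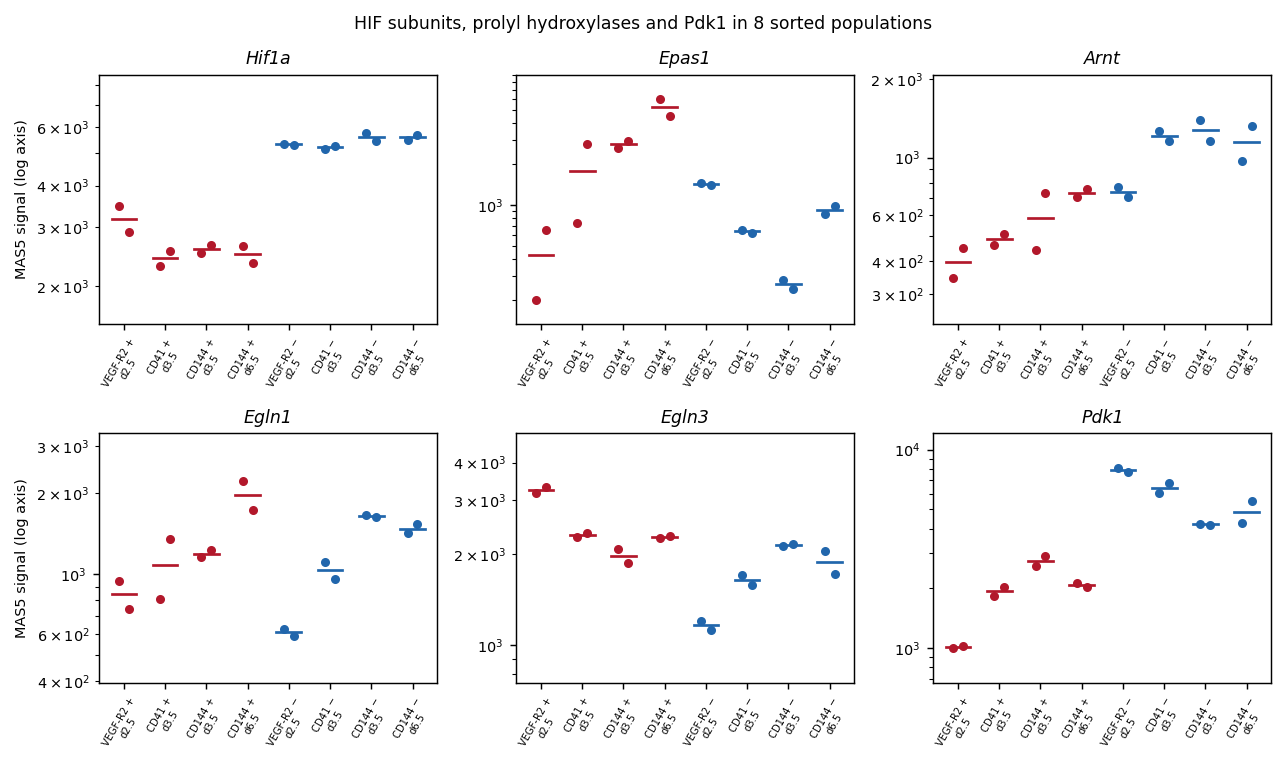
MAS5 signal on a log axis for HIF subunits, both HIF prolyl hydroxylases and Pdk1 in 8 sorted populations; points are the 2 arrays of a population, lines their mean, red positive cells and blue negative control cells. Hif1a is higher on all negative than on all positive arrays, and Epas1 is highest in CD144+ cells on day 6.5.

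Egln1 and Egln3 encode prolyl hydroxylases that mark the HIF alpha subunits. Egln3, itself a HIF target, had its highest level in VEGF-R2+ cells, 3174 and 3331, and its lowest in VEGF-R2 negative cells, 1203 and 1122. It was 2264 and 2348 in CD41+ cells, 2073 and 1867 in CD144+ cells on day 3.5 and 2253 and 2287 at day 6.5, and from 1576 to 2146 on the later negative arrays. The positive and negative sides had thus come close by day 3.5 in the CD144 sort, with a log2 difference of -0.12 (adjusted p = 0.576). At day 2.5 the difference was 1.48 (standard error 0.13, adjusted p = 5.6e-07). From day 2.5 Egln3 was lower by 0.72 in CD144+ cells on day 3.5, as a log2 difference of -0.72 (adjusted p = 0.00195), and higher by 0.88 in CD144 negative cells (adjusted p = 0.000294), a difference in change of -1.60 (standard error 0.18, adjusted p = 2.95e-05). The other probe set of Egln3 gave 0.73 at day 2.5, -0.48 in CD144+ and 0.05 in CD144 negative cells, so the rise in negative cells rests on the brighter one. Egln1 was higher than at day 2.5 in CD144+ cells on day 6.5 by 1.22 (adjusted p = 0.000487), and in CD144 negative cells by 1.43 at day 3.5 and 1.27 at day 6.5. Its second probe set gave 0.65, 1.13 and 1.32.

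Slc2a1 encodes GLUT1, the glucose transporter of most embryonic cells. Its signal was 7357 and 9540 on the VEGF-R2+ arrays, 10068 and 14439 on the CD41+ arrays, 28817 and 41175 on the CD144+ arrays at day 3.5 and 30377 and 34842 at day 6.5. Against VEGF-R2+ cells this was 4.11-fold higher at day 3.5 (log2 difference 2.04, standard error 0.19, adjusted p = 5.14e-06) and 3.88-fold higher at day 6.5 (1.96, adjusted p = 3.62e-06). The CD144+ arrays lay above all CD41+ arrays, with a log2 difference of 1.51 at day 3.5 (adjusted p = 5.37e-05), and 2 other probe sets of Slc2a1 gave 1.62 and 1.69. Negative cells had 10980 and 10741 at day 2.5, 20529 and 21861 (CD41) and 18975 and 18433 (CD144) at day 3.5, and 22730 and 27367 at day 6.5. The change to CD144+ cells on day 3.5 exceeded that of the negative cells by 1.26 (standard error 0.27, adjusted p = 0.00946). This call was lost without replicate 1 of VEGF-R2+ cells (1.07, adjusted p = 0.0563) or without replicate 2 of CD144+ cells on day 3.5 (1.0, adjusted p = 0.0557).

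Slc2a3, the transporter GLUT3, was higher than in VEGF-R2+ cells in all later positive cells, by 0.78 (CD41), 1.03 and 1.18 (CD144 at days 3.5 and 6.5) on the log2 scale. It was higher by 0.95, 0.95 and 1.13 among the matching negative cells. Its differences of positive over negative cells were called as 0.44, 0.52 and 0.49 in the VEGF-R2 sort and both CD144 sorts, but they turned to -0.30 at day 3.5 and -0.17 at day 6.5 under quantile normalization of the arrays. A pair of dimmer probe sets of Slc2a3 (mean log2 levels 9.08 and 7.75) lay lower in positive cells by as much as -6.11. The probe sets of this gene thus disagreed, and no direction between positive and negative cells is given. The size of the rise also depended on the probe set. The brighter of the pair gave 1.10, 3.50 and 5.20 in positive and 1.75, 2.04 and 1.13 in negative cells. A second bright probe set gave 1.01, 1.63 and 2.05, and 1.23, 1.36 and 1.65. Slc16a1, the lactate and pyruvate transporter MCT1, was lower in positive cells by -0.66 in the CD41 sort, and by -1.08 and -1.47 in the CD144 sort at days 3.5 and 6.5 (standard error 0.13, adjusted p = 0.000702, 1.83e-05 and 6.37e-07). At day 6.5 it was 5869 and 6687 on the positive and 17197 and 17521 on the negative arrays. The probe set of largest variance for Slc16a1, which is dim, gave 0.42, -0.87 and -0.50, none of them called.

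Of 13 glycolytic enzymes and lactate dehydrogenase subunits measured, 4 differed in CD41+ cells from VEGF-R2+ cells (2 higher, 2 lower), 6 in CD144+ cells on day 3.5 and 7 at day 6.5, all of these higher. Over all genes 14.6%, 11.1% and 21.7% were called in either direction. Among negative cells against those of day 2.5, 6 (CD41), 6 and 7 (CD144, days 3.5 and 6.5) of the 13 were called, all higher. Over all genes 5.6%, 11.4% and 13.6% were called there. The change differed between positive and negative cells for 6, 1 and 2 of the 13, against 7.73%, 8.34% and 7.22% of all genes. Hk1, a hexokinase, was 530 and 681 in VEGF-R2+ cells and higher in each later positive population: 1900 and 2433 (CD41), 1366 and 1456 (CD144, day 3.5), and 1880 and 1471 (day 6.5). The log2 differences were 1.83, 1.22 and 1.46 (standard error 0.20, adjusted p = 1.07e-05, 0.000925 and 7.44e-05). On the 8 negative arrays Hk1 ran from 647 to 1062, with no called difference between days. Hk2, a hexokinase induced by HIF, was the reverse of this. Its signal was 1345 to 2278 on the positive and 4174 to 5859 on the negative arrays, with log2 differences of -0.90, -1.80, -1.37 and -1.61 in the VEGF-R2, CD41 and both CD144 sorts (standard error 0.14, adjusted p = 0.000191, 6.71e-08, 4.99e-06 and 8.28e-07).

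The 3 phosphofructokinase genes encode the first committed step of glycolysis and did not move as 1 group. Pfkm was 594 and 619 in VEGF-R2+ cells against 1281 and 1194 in CD144+ cells on day 3.5, a log2 difference of 1.02 (standard error 0.15, adjusted p = 0.000336). Pfkp was 3645 and 3453 in CD41 negative cells and 1267 and 1413 in CD41+ cells, a log2 difference of -1.40 (adjusted p = 2.77e-06), while the CD144 sort at day 3.5 had a Pfkp difference of 0.06. The other 2 probe sets of Pfkp, which are dim, gave -1.98 and -3.12 in the CD41 sort and -1.17 and -1.78 in the CD144 sort. For Pfkl the differences from VEGF-R2+ cells were 0.27, 0.58 and 0.58 and none was called (adjusted p = 0.476, 0.0828 and 0.052).

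Aldoc, an aldolase known mainly from brain, varied more than Aldoa, the aldolase of most tissues. Aldoc was 973 and 1385 on the VEGF-R2+ arrays, 832 and 1801 on the CD41+ arrays, 3581 and 3482 on the CD144+ arrays at day 3.5, and 4290 and 4090 at day 6.5. It was 980 and 879 in VEGF-R2 negative cells, 2573 and 2389 in CD41 negative cells, and 3289 and 3584 (day 3.5) and 2556 and 2517 (day 6.5) in CD144 negative cells. Positive and negative cells of the CD144 sort were alike in level at day 3.5 (log2 difference 0.04, adjusted p = 0.934), and both lay above day 2.5, by 1.60 on the positive side (standard error 0.24, adjusted p = 0.000562) and 1.88 on the negative side (adjusted p = 9.29e-05). The mean of the Aldoc probe sets in place of the brightest gave 0.44 on the positive side, without a call. Aldoa was 0.68 higher in CD144+ cells on day 6.5 than in VEGF-R2+ cells (standard error 0.13, adjusted p = 0.0012), and 0.44 higher without a call when the median of each array was subtracted.

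Of the later enzymes Tpi1 and Pgk1 were higher in some positive populations. Tpi1 was 16654 and 17063 in VEGF-R2+ and 27244 and 28626 in CD41+ cells, higher by 0.73 (standard error 0.13, adjusted p = 0.00138). Pgk1, which makes the first ATP of the pathway, was 18775 and 18588 in VEGF-R2+ cells and 36700 and 38316 in CD144+ cells on day 6.5, higher by 1.01 (standard error 0.12, adjusted p = 1.92e-05). No difference between positive populations was called for Pgam1, Pkm or Ldha. For Ldha, the lactate dehydrogenase subunit under HIF control, the log2 differences from VEGF-R2+ cells were -0.10, -0.07 and -0.20 with a standard error of 0.13. Ldha was 33997 and 37811 in VEGF-R2+ and 16600 and 16887 in VEGF-R2 negative cells, a log2 difference of 1.10 (adjusted p = 1.14e-05) that was called under quantile normalization as well. In the later sorts its differences of 0.56, 0.47 and 0.40 became -0.11, -0.45 and -0.20 under that normalization. The last of these calls was lost without any of its 4 arrays (0.37 to 0.43), and that of day 3.5 in the CD144 sort without replicate 2 of the positive (0.37) or replicate 1 of the negative cells (0.40).

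Ldhb encodes the lactate dehydrogenase subunit that favors pyruvate, and it was low in CD41+ cells. Its signal there was 458 and 908, against 3122 and 3301 in VEGF-R2+ cells, 5409 and 5695 in CD144+ cells on day 3.5 and 5037 and 4696 at day 6.5. In the negative cells it was 2074 and 1848 at day 2.5, 3928 and 3828 (CD41) and 2455 and 3148 (CD144) at day 3.5, and 4201 and 4255 at day 6.5. Both CD41+ arrays lay below all other 14 arrays. The log2 difference from VEGF-R2+ cells was -2.30 (standard error 0.21, adjusted p = 2.13e-06), from CD41 negative cells -2.58 (adjusted p = 1.25e-07), and CD144+ cells on day 3.5 were 8.54-fold higher than CD41+ cells (log2 difference 3.09, adjusted p = 1.73e-07).

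Pfkfb4, which makes and breaks down the activator of phosphofructokinase, showed the opposite pattern. It was 962 and 849 in CD41+ cells, 205 and 212 in VEGF-R2+ cells, 256 and 229 in CD144+ cells on day 3.5, and 268 and 369 at day 6.5. In the negative cells it was 141 and 222 on day 2.5, 214 and 153 (CD41) and 198 and 188 (CD144) on day 3.5, and 218 and 300 on day 6.5. The CD41+ arrays lay above all others, with log2 differences of 2.08 from VEGF-R2+ cells (standard error 0.28, adjusted p = 9.38e-05) and 2.29 from CD41 negative cells (adjusted p = 8.21e-06). The difference of CD144+ from CD41+ cells on day 3.5 was -1.87 (adjusted p = 0.000255). Markers of primitive erythroid cells, 6 of 6 measured, summed to 94589 to 112918 in CD41+ cells, 796 to 1037 in VEGF-R2+ cells, 3081 to 3290 in CD144+ cells on day 3.5 and 38281 to 47829 at day 6.5. Over the negative populations they summed to 351 to 1219, except in CD144 negative cells on day 6.5 with 42028 to 46630. The part of the erythroid cells in the values of Ldhb and Pfkfb4 was not tested.

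**Figure D3:**
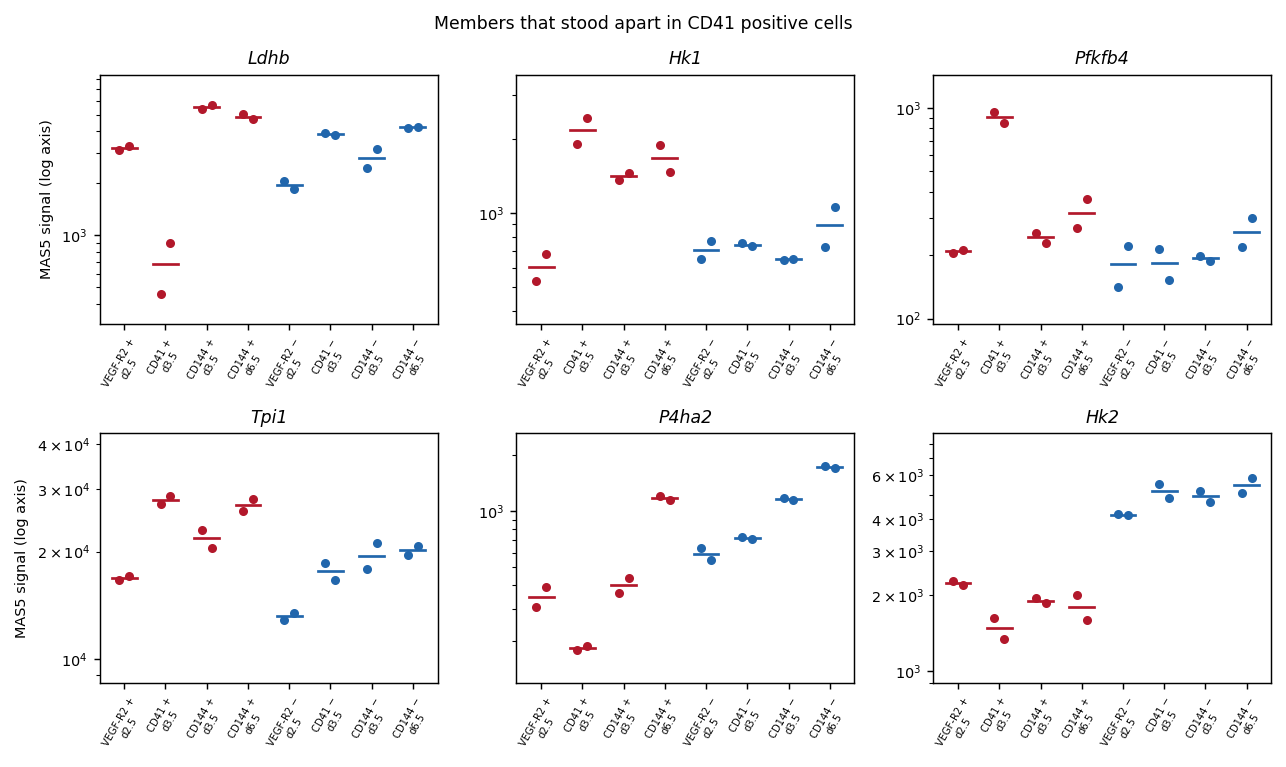
MAS5 signal on a log axis for 6 genes of glycolysis and collagen hydroxylation; points are the 2 arrays of a population, lines their mean, red positive cells and blue negative control cells. In CD41+ cells Ldhb and P4ha2 are at their lowest and Pfkfb4 at its highest.

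Between the cells sorted at day 3.5, CD144+ cells had 8 of 34 genes higher and 1 lower than CD41+ cells, against 9.59% and 5.07% of all genes. The 8 were Slc2a1, Pfkm, Aldoc, Ldhb, Pdk1, Bnip3, Ndrg1 and P4ha2, and the gene that was lower was Pfkfb4. P4ha2, a subunit of the enzyme that hydroxylates collagen, was 179 and 189 in CD41+ and 366 and 439 in CD144+ cells, a log2 difference of 1.10 (standard error 0.17, adjusted p = 0.00038). The calls of 3 of these genes were less firm. For Pfkm the difference of 0.68 became 0.52 without replicate 1 of CD41+ cells. For Bnip3, 0.73 became 0.60 without that array and 0.68 without replicate 1 of CD144+ cells. For Pdk1, 0.51 became 0.44 without replicate 1 of CD41+ cells and 0.43 without replicate 2 of CD144+ cells, and none of these values was called.

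Pfkfb3, known as the main driver of glycolysis in endothelial cells, rose on both sides of the sort. On the positive arrays it was 195 and 165 at day 2.5, 399 and 323 (CD41) and 452 and 525 (CD144) at day 3.5, and 1243 and 1127 at day 6.5. On the negative arrays it was 231 and 221 at day 2.5, 676 and 686 (CD41) and 1458 and 1421 (CD144) at day 3.5, and 1318 and 1068 at day 6.5. The positive cells of the CD144 sort were below their control at day 3.5 and level with it at day 6.5, with log2 differences of -1.55 (standard error 0.18, adjusted p = 1.59e-05) and 0.00 (adjusted p = 0.993). From day 2.5 to day 6.5 the gene was 6.41-fold higher in the CD144+ cells (adjusted p = 5.65e-08) and 5.14-fold higher in the CD144 negative cells (adjusted p = 2.9e-07). A dim second probe set of Pfkfb3 gave log2 differences of only 0.42 and 0.88. From day 2.5 to day 3.5 it gave -0.01 (CD41) and -0.12 (CD144) in positive cells, and 0.19 and 0.92 in negative cells.

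Pdk1 blocks pyruvate dehydrogenase by phosphorylation, and positive and negative cells lay closer in its level after day 2.5. On the positive arrays it was 999 and 1021 at day 2.5, 1827 and 2028 (CD41) and 2589 and 2924 (CD144) at day 3.5, and 2122 and 2023 at day 6.5. On the negative arrays it was 8049 and 7689 at day 2.5, 6027 and 6777 (CD41) and 4234 and 4182 (CD144) at day 3.5, and 4246 and 5478 at day 6.5. Every positive array lay below every negative array. The difference between positive and negative cells was -2.95 at day 2.5 (standard error 0.14, adjusted p = 1.89e-09) and -0.61 (adjusted p = 0.00375) and -1.22 (adjusted p = 8.65e-06) in the CD144 sort at days 3.5 and 6.5. The differences in the CD144 sort rest on this probe set, since a second bright one gave 0.16 and -0.06 and another -0.05 and -0.30, while at day 2.5 these gave -2.14 and -1.80. The change to CD144+ cells exceeded that of the negative cells by 2.34 at day 3.5 (standard error 0.19, adjusted p = 9.11e-07) and by 1.74 at day 6.5 (adjusted p = 3.72e-05). Genes of pluripotent cells, 7 of 7 measured, summed to 37456 to 57052 over the negative populations of days 2.5 and 3.5 and 30153 to 30302 at day 6.5, and to 21272 to 25621 (VEGF-R2), 2850 to 7410 (CD41), 29720 to 32914 and 12846 to 13287 (CD144) over the positive ones. Their part in the differences of Hif1a, Hk2 and Pdk1 was not tested.

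Bnip3, the mitophagy receptor, was 1298 and 2040 on the VEGF-R2+ arrays, 3480 and 4148 on the CD41+ arrays, 6529 and 6093 on the CD144+ arrays at day 3.5, and 8754 and 9078 at day 6.5. Relative to day 2.5 the log2 differences were 1.22, 1.95 and 2.45 (standard error 0.16, adjusted p = 0.000102, 2.08e-06 and 5.65e-08). Negative cells had 2811 and 2791 at day 2.5 and from 7191 to 7959 on all 6 later arrays. The negative side was thus at its later level in every day 3.5 sort, while the positive side differed between sorts.

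Ankrd37, a HIF target of uncertain function, lay higher in positive cells of every sort, as did the enzymes Aldoa and Ldha. None of Ndrg1, Ddit4, Car9, Adm, P4ha1 and P4ha2 did so. Ankrd37 was 312 and 470 on the VEGF-R2+ arrays, 769 and 807 (CD41) and 1105 and 1182 (CD144) at day 3.5, and 1437 and 2072 at day 6.5. Negative cells had 180 and 188 at day 2.5, 414 and 435 (CD41) and 409 and 430 (CD144) at day 3.5, and 580 and 551 at day 6.5. Positive cells were higher by 1.03, 0.88, 1.43 and 1.60 in the VEGF-R2, CD41 and both CD144 sorts (standard error 0.21, adjusted p = 0.00131, 0.0033, 0.000107 and 3.55e-05). The rise over time was alike on both sides, 2.15 to CD144+ and 1.59 to CD144 negative cells on day 6.5, and the difference in change, 0.57 with a standard error of 0.29, was not called (adjusted p = 0.333).

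Ndrg1 and P4ha1 rose more by day 3.5 in negative than in positive cells. Ndrg1, a stress response gene, was 243 and 265 (VEGF-R2), 195 and 370 (CD41), 830 and 812 (CD144, day 3.5) and 1500 and 1609 (day 6.5) on the positive arrays. The matching negative arrays had 364 and 372, 1880 and 1943, 3766 and 3919, and 1986 and 2857. Its difference in CD144 negative cells on day 3.5 from day 2.5 was 10.3-fold (log2 difference 3.36, standard error 0.22, adjusted p = 1.28e-07), against 3.18-fold in CD144+ cells. The change to CD144+ cells was smaller by 1.69, as a difference of -1.69 (standard error 0.32, adjusted p = 0.00336), at day 3.5, and at day 6.5 no difference in change was called (-0.09, adjusted p = 0.927). With the probe set of largest variance, Ndrg1 was 0.92 higher in CD144+ cells on day 3.5, without a call.

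P4ha1 and P4ha2 encode alternative alpha subunits of collagen prolyl 4-hydroxylase. P4ha1 was 295 and 452 (VEGF-R2), 433 and 400 (CD41), 656 and 545 (CD144, day 3.5) and 1576 and 1406 (day 6.5) on the positive arrays. It was 492 and 510, 1377 and 1341, 2020 and 1927, and 2747 and 2508 on the matching negative arrays. The positive cells had their main increase between days 3.5 and 6.5 (log2 difference 1.31, standard error 0.18, adjusted p = 0.000391), the negative cells before day 3.5 (1.96 in the CD144 sort, adjusted p = 3.02e-06). P4ha2 behaved in the same way in positive cells, with 305 and 391 (VEGF-R2), 366 and 439 (CD144, day 3.5) and 1216 and 1145 (CD144, day 6.5), a log2 difference of 1.54 between the CD144+ days (standard error 0.17, adjusted p = 4.39e-05). In VEGF-R2 negative cells it was 633 and 544, in CD41 negative cells 730 and 710, and in CD144 negative cells 1183 and 1153 at day 3.5 and 1751 and 1709 at day 6.5.

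**Figure D4:**
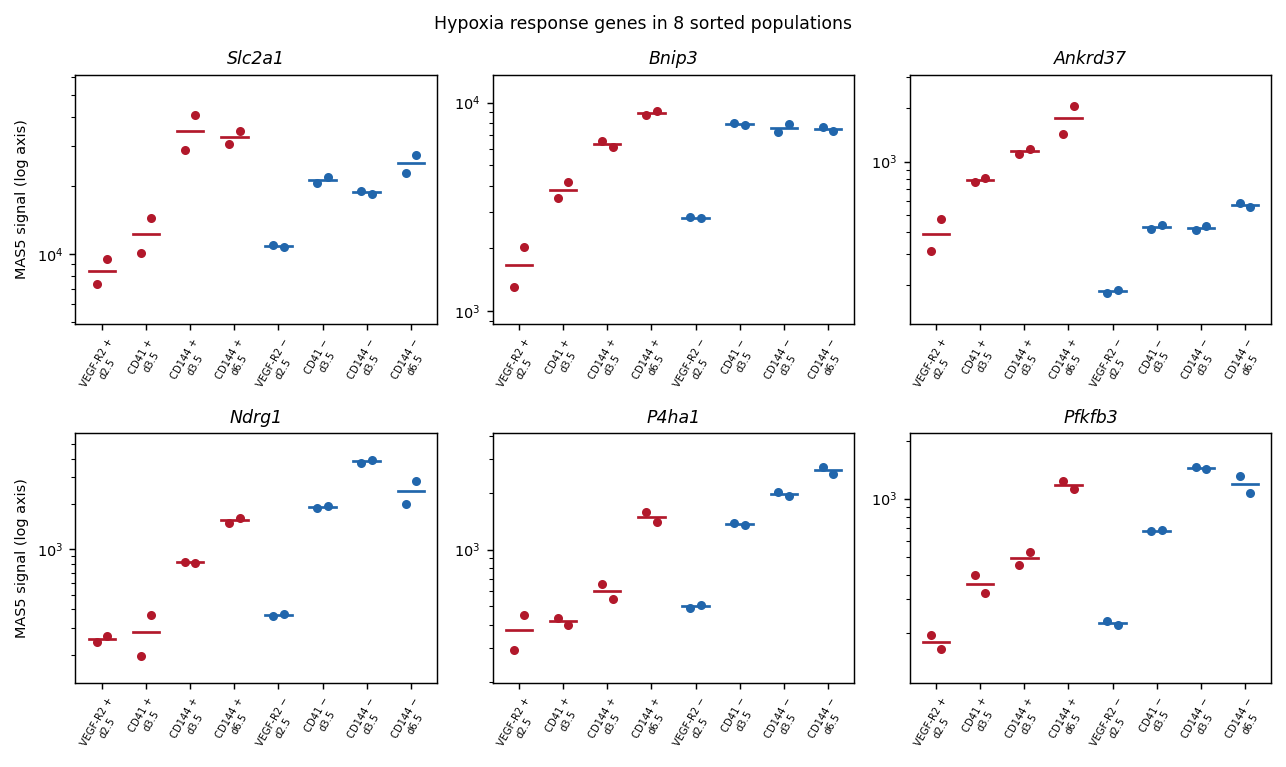
MAS5 signal on a log axis for Slc2a1, Bnip3, Ankrd37, Ndrg1, P4ha1 and Pfkfb3 in 8 sorted populations; points are the 2 arrays of a population, lines their mean, red positive cells and blue negative control cells. Levels in VEGF-R2+ cells are below those of CD144+ cells on day 6.5 for all 6 genes, and Ndrg1 and P4ha1 are higher in negative than in CD144+ cells on day 3.5.

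Adm, which encodes the vasodilator peptide adrenomedullin, had its highest level in CD144+ cells on day 6.5, 1151 and 1032. It was 109 and 26.4 in VEGF-R2+ cells, 157 and 50.8 in CD41+ cells and 151 and 139 in CD144+ cells on day 3.5. Negative cells had 152 and 127 at day 2.5, 292 and 274 (CD41) and 357 and 392 (CD144) at day 3.5, and 342 and 525 at day 6.5. The CD144+ cells of day 6.5 exceeded those of day 3.5 by 7.27-fold (log2 difference 2.86, standard error 0.49, adjusted p = 0.00237), and their difference from the negative cells of that day, 1.35, was not called (adjusted p = 0.0644). With the probe set of largest variance the rise between the CD144+ days was 2.47 (adjusted p = 0.0757). Markers of endoderm, 5 in all, and of fibroblasts, 6 in all, were also highest in these cells, with sums of 7774 to 8829 and 6171 to 7441 against 1792 to 1908 and 1080 to 1206 in those of day 3.5, and 5046 to 6079 and 3507 to 3796 in the negative cells of day 6.5. The endoderm markers are Afp, Ttr, Apoa1, Foxa2 and Sox17, and the study itself lists Sox17 as raised in CD144+ cells of day 6.5. The part of these markers in the Adm value was not tested.

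Ddit4 and Car9 gave the least reliable values. Ddit4, an inhibitor of growth signalling that stress induces, was 2031 and 1870 in VEGF-R2+ cells and 6569 and 7156 in CD144+ cells on day 3.5, a log2 difference of 1.81 (standard error 0.50, adjusted p = 0.0346). Its negative arrays differed by several fold within a population (1584 and 7317 in CD41 negative cells), and the call was lost when any of the 4 arrays compared was left out (1.75 to 1.87). Car9 was dim, with 90.8 and 86.4 in VEGF-R2+, 28.5 and 3.66 in CD41+, 14.9 and 58.3 in CD144+ cells on day 3.5 and 101 and 99.3 at day 6.5. In the negative cells it was 49.4 and 33 (VEGF-R2), 70.1 and 9.52 (CD41), and 58.3 and 52.4 (day 3.5) and 55 and 33.7 (day 6.5) in the CD144 sort. Replicates were far apart in the CD41+, CD41 negative and day 3.5 CD144+ cells, and no difference was called.

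Within each day, positive cells were compared with their negative control. At day 2.5, 7 of 34 were higher in VEGF-R2+ cells and 9 lower, against 16% and 13.7% of all genes. The total of 16 became 10 to 14 when 1 array was left out, with 10 without replicate 1 of VEGF-R2 negative cells. In the CD41 sort 7 were higher and 16 lower, against 19.2% and 17.2%. In the CD144 sort 8 were higher and 9 lower at day 3.5, against 13.7% and 10.3%, and 9 higher and 6 lower at day 6.5, against 13.4% and 11.9%. These shares depend on level. Among all probe sets with a mean log2 level of 10 to 12, which hold 13 of the 34, they were 24.5% and 26.9% for VEGF-R2. At that level they were 27.7% and 30.8% for CD41, and 19.2% and 24.8%, then 19.9% and 28.1%, for CD144 at days 3.5 and 6.5. The median over the 34 genes was -0.06, -0.54, -0.18 and 0.25, and that over all genes 0.16, 0.18, 0.17 and 0.14. The 16 that were lower in CD41+ cells include Hif1a, Arnt, Slc2a1, Hk2, Pfkm, Pfkp, Ldhb, Pdk1, Bnip3, Ndrg1, P4ha1 and P4ha2. For Slc2a1 the difference of -0.81 became -0.55 without replicate 1 of CD41+ cells and lost its call. Aldoa, Tpi1, Pgk1 and Ldha, at a mean log2 level of 14 or more, were among those called higher in at least 1 sort, Aldoa and Ldha in every sort. The 7 listed genes at that level had medians of 0.36, 0.27, 0.47 and 0.43 against the 0.87, 0.75, 0.95 and 0.71 of all probe sets of like level. Under quantile normalization the difference of Aldoa was 0.04 in the CD41 sort and -0.03 in the CD144 sort at day 3.5, that of Tpi1 was 0.00 and that of Pgk1 -0.06 at day 6.5.

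Whether a change over time differed between positive and negative cells was tested as a difference of differences. From VEGF-R2 to CD41 cells 13 of 34 differed, 4 with a more positive and 9 with a more negative change in the positive cells, against 7.73% of all genes in either direction. From VEGF-R2 to CD144 cells on day 3.5 there were 4 and 5, against 8.34%, and at day 6.5 there were 5 and 3, against 7.22%. The last total of 8 became 4 without either replicate of VEGF-R2 negative cells. Epas1, Hk1 and Pdk1 had a more positive change in positive cells in all 3 tests, and Egln3 a more negative one. For Hk1 the values were 1.75, 1.34 and 1.15 (standard error 0.28, adjusted p = 0.000971, 0.00728 and 0.0239). The value of 1.34 became 1.22 (adjusted p = 0.0537) without replicate 2 of VEGF-R2 negative cells. That of 1.15 lost its call without replicate 1 of VEGF-R2+ cells (0.97), of CD144+ cells on day 6.5 (0.97), of VEGF-R2 negative cells (1.26) or of CD144 negative cells on day 6.5 (0.87), and without replicate 2 of VEGF-R2 negative cells (1.03). The 3 tests share the day 2.5 arrays.

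**Figure D5:**
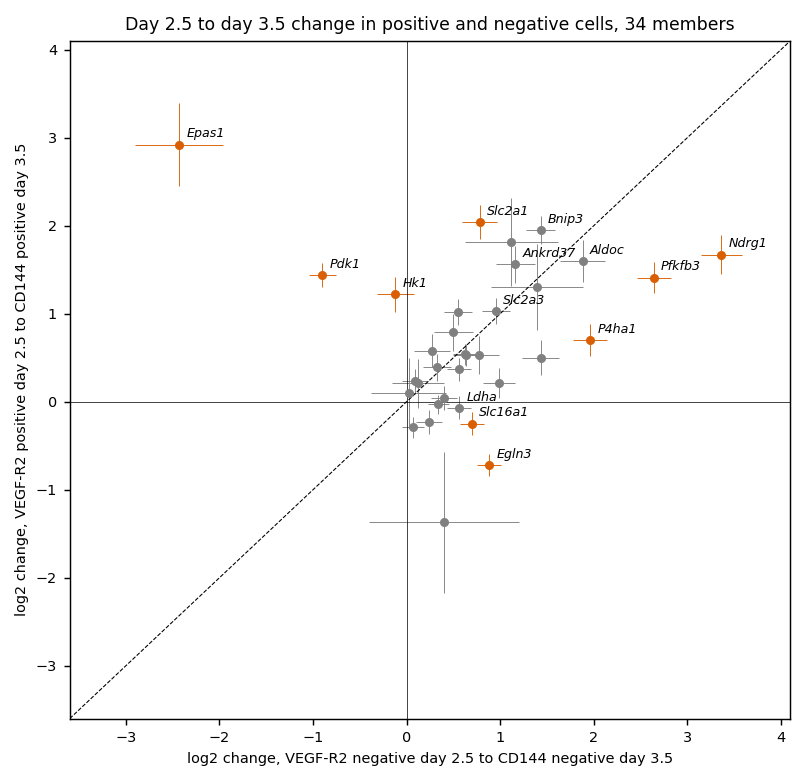
Log2 change from day 2.5 to day 3.5 for 34 genes, in negative cells (VEGF-R2 negative to CD144 negative, horizontal) and in positive cells (VEGF-R2+ to CD144+, vertical); bars are standard errors, orange points the 9 genes whose changes differed by limma, and the dashed line marks equal change. Epas1 and Pdk1 lie at upper left, higher in positive and lower in negative cells, and Ndrg1, Pfkfb3 and P4ha1 lie to the right of the line.

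A further 60 genes of the pathway were followed from lists set by function, also chosen with earlier results known. The lists cover other glycolysis isozymes, pyruvate entry to mitochondria, oxygen sensing, the pentose phosphate pathway and other hypoxia response genes. In CD41+ cells 12 of 60 were higher and 3 lower than in VEGF-R2+ cells, in CD144+ cells 12 and 3 at day 3.5, and 23 and 5 at day 6.5. Over all genes these shares were 7.04% and 7.59%, 7.21% and 3.92%, and 12.8% and 8.86%. The medians of the 60 genes were 0.19, 0.26 and 0.30, and those of all genes 0.03, 0.07 and 0.10. Among 24 other hypoxia response genes, 12 were higher and 2 lower in CD144+ cells on day 6.5, and 11 were higher and 3 lower in the CD144 negative cells of that day against VEGF-R2 negative cells, where 8.2% and 5.44% of all genes were called. Ppp1r3c, a glycogen-targeting subunit of protein phosphatase, rose by 4.21 at day 3.5 and by 4.58 at day 6.5 in CD144 negative cells (standard error 0.43, adjusted p = 8.68e-06 and 3.44e-06). In CD144+ cells it was higher by 2.42 at day 6.5 (adjusted p = 0.000862). Eno2, an enolase, was higher in CD144+ cells by 1.43 at day 3.5 and 2.76 at day 6.5 (standard error 0.27, adjusted p = 0.00341 and 3.85e-06), and by 1.96 and 1.83 in CD144 negative cells.

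Of 9 genes that govern the entry of pyruvate to mitochondria, 4 were called in CD144+ cells on day 6.5 against VEGF-R2+ cells (2 higher, 2 lower). Over all genes 12.8% were higher and 8.86% lower there, and with 9 genes no result for the group is drawn. Pdk4, an inhibitor of pyruvate dehydrogenase like Pdk1, was higher in CD144+ cells by 1.67 at day 3.5 and 2.68 at day 6.5 (adjusted p = 0.0077 and 6.16e-05). Mpc1, a subunit of the mitochondrial pyruvate carrier, was lower in CD144+ cells on day 3.5, with a log2 difference of -1.55 (adjusted p = 0.000327). In CD41+ cells Rpia, of the pentose phosphate pathway, was higher by 1.95 (standard error 0.18, adjusted p = 2.12e-06) and Pgam2, the muscle form of phosphoglycerate mutase, was lower with a difference of -2.59 (adjusted p = 0.00202). Edn1, the endothelial peptide endothelin 1, was higher than in negative cells by 3.11 in the CD41 sort and by 3.36 and 3.83 in the CD144 sort (standard error 0.51, adjusted p = 0.000156, 0.000162 and 4.57e-05).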

How the data were processed

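The authors deposited MAS5 signals, a linear intensity per probe set, for 16 Affymetrix 430 2.0 arrays, and scaled each array to a trimmed mean of 500 (2% trimmed at each end). The tool is named in the submitters' processing notes and its version is not given in the sources used here. The lists of the study came from dChip values, which were not used here.

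Of 45101 probe sets, 64 controls were left out. In the platform annotation 34945 list 1 symbol, 932 several and 9160 none. No column of another sample was used (0 columns). Deposited intensities plus 6 were put on the log2 scale, since their 10th percentile was 6.03 (median 85.8), and fitted in limma 3.58.1 under R 4.3.3 with a trend. The fit had 8 residual degrees of freedom and pooled the spread of all 8 populations. Because 6 was added, a fold change on this scale understates that of dim genes. P-values were adjusted by Benjamini-Hochberg over all probe sets. The number of arrays, 2 per population, limits the precision. Levels were not compared between genes, and probe sets ending in x or s can take up related transcripts. The fit was tested on simulated data.

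The members and lists were chosen with earlier results of these data known. Values of both arrays were set to be printed for Hif1a, Epas1, Gapdh (control set ranges only) and the 12 other members with the widest range of population means, and for others where calls differ. Of other lists up to 4 called genes per comparison with the largest difference were eligible. It is not stated whether equal replicate numbers share an experiment, and the numbers were not used for pairing in the main fit. Alternatives were quantile normalization, median subtraction, offsets of 1 and 32, a filter on dim probe sets, a robust prior without trend, other probe sets per gene, fits of fewer groups, a 90% bound beyond a fold of 2, a replicate block and leaving out each array. Promoters are from RefSeq (GRCm38.p6). Plots were made in Python 3.11.15 with matplotlib 3.10.9.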

Additional observations from a re-analysis of the deposited data

Results flagged for a closer look

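The changes below were singled out because a change from VEGF-R2+ cells of day 2.5 to later positive cells differed from the change between the matching negative cells, in limma over all probe sets. Each value is the change in positive cells minus that in negative cells on the log2 scale, and all tests share the day 2.5 arrays.

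For the step to CD41+ cells, Epas1 (3.12, adjusted p = 0.00972), Hk1 (1.75, adjusted p = 0.000971), Pfkfb4 (2.05) and Pdk1 (1.23) had the more positive change in positive cells. The more negative change there was found for Ldhb (-3.29, adjusted p = 4.47e-06), Ndrg1 (-2.28), Pfkp (-1.39), Aldoc (-1.34), P4ha1 (-1.24), P4ha2 (-1.18), Egln3 (-0.99), Hk2 (-0.90) and Pgam1 (-0.59). The Epas1 value was 2.27 without replicate 1 of VEGF-R2+ cells and lost its call (adjusted p = 0.0509). That of Pgam1 lost its call without any of the 8 arrays compared (-0.62 to -0.57), that of Aldoc in 6 of 8 such fits (-1.41 to -0.78, the last without replicate 1 of CD41+ cells), and that of Hk2 in 3 (-0.90 to -0.81). For P4ha2 it became -1.07 without replicate 2 of VEGF-R2 negative cells (adjusted p = 0.0601).

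For the step to CD144+ cells of day 3.5, the change was more positive for Epas1 (5.34), Pdk1 (2.34), Hk1 (1.34) and Slc2a1 (1.26). It was more negative for Ndrg1 (-1.69), Egln3 (-1.60), P4ha1 (-1.26), Pfkfb3 (-1.23) and Slc16a1 (-0.96). The call of Slc2a1 was lost without replicate 1 of VEGF-R2+ cells (1.07) or replicate 2 of the CD144+ cells (1.0), and that of Hk1 without replicate 2 of VEGF-R2 negative cells (1.22).

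For the step to CD144+ cells of day 6.5, it was more positive for Epas1 (4.45), Adm (2.59), Pdk1 (1.74), Hk1 (1.15) and Bnip3 (1.04), and more negative for Slc16a1 (-1.35), Egln3 (-1.20) and Ldha (-0.70). The Adm call was lost in 7 of 8 fits that left out 1 array, with 1.68 without replicate 2 of VEGF-R2+ cells. That of Ldha was lost in 7 of 8 such fits (-0.73 to -0.62), and that of Bnip3 without replicate 1 (1.03) or replicate 2 (1.04) of VEGF-R2 negative cells.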

How the results depend on the processing

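Counts below are of the 34 genes called in either direction, and the cause of each shift was not tested. With each array left out in turn, the range was 9 to 16 for CD41+ against VEGF-R2+ cells, 14 to 16 and 20 to 21 for CD144+ cells of days 3.5 and 6.5 against VEGF-R2+ cells, 4 to 4 between the CD144+ days, and 6 to 10 for CD144+ against CD41+ cells. It was 10 to 14, 21 to 23, 14 to 17 and 10 to 12 for positive against negative cells in the VEGF-R2, CD41 and both CD144 sorts. For negative cells against those of day 2.5 it was 7 to 9 (CD41), 13 to 17 and 17 to 18 (CD144), and for the differences in change 9 to 12, 8 to 10 and 4 to 7. The F test called 29 to 32. A robust prior without trend left 11 genes for CD144+ cells of day 3.5, 4 between the CD144+ days, 5 and 11 for CD41 and CD144 negative cells of day 3.5, and 6, 3 and 4 differences in change. Subtracting array medians left 4 between the CD144+ days and 8 for CD41 negative cells. Quantile normalization left 9 between positive and negative CD144 cells of day 6.5. Fits of the groups compared alone gave 8 for CD41+ cells, 24 for CD41 negative cells and 4 for the last difference in change, and the 8 positive arrays alone gave 4 between the CD144+ days. The probe set of largest variance gave 5 for the difference in change to CD144+ cells of day 3.5, and the mean of probe sets 8 for that to CD41+ cells.

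A 90% bound beyond a fold of 2 was passed by 4, 8 and 12 genes in CD41+ and both CD144+ populations against VEGF-R2+ cells. It was passed by 2 between the CD144+ days and by 5 for CD144+ against CD41+ cells. For positive against negative cells 3, 9, 7 and 4 passed, among negative cells 5, 7 and 7, and 6, 4 and 4 differences in change. The share of all genes was not computed for this bound or the settings above, so these counts have no background.

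Among the alternative settings, directions of called differences turned only between positive and negative cells. Under quantile normalization Ldha was -0.11 in the CD41 sort, Slc2a3 -0.30, Aldoa -0.03 and Ldha -0.45 in the CD144 sort of day 3.5, and Slc2a3 -0.17, Tpi1 0, Pgk1 -0.06 and Ldha -0.20 in that of day 6.5. With the probe set of largest variance Slc2a3 was -5.46, -3.99 and -1.39 in the VEGF-R2 and both CD144 sorts. For Arnt and Slc16a1 that probe set is dim, and it gave Arnt 0.13 (CD41) and 1.36 (CD144, day 3.5), and Slc16a1 0.42 (CD41). With the mean of probe sets Slc2a3 was -2.41, -1.97 and -0.50. Single dim probe sets, not used as a setting, also turned some called changes from VEGF-R2+ cells. Among them were Aldoc in CD144+ cells at days 3.5 and 6.5 (-0.73 and -0.35), Pfkfb3 in CD144+ cells on day 3.5 (-0.12) and Epas1 in CD41+ cells (-0.31).

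Whether equal replicate numbers share an experiment is not given in the sources used here. Deviations of equally numbered arrays correlated between -0.0468 and 0.0472 over 28 pairs of populations, so no shared deviation was seen. With the number as a replicate block, 15, 17 and 22 genes were called in the later positive cells against VEGF-R2+ cells, and of 222 gene-level calls the block ended 1, that of Egln1 between the CD144+ days. Of those 222, 129 were lost in at least 1 setting other than the bound, 75 of them under the robust prior.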
